A study of Bos taurus with 33 samples.

Results

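Endometrial biopsies taken on day 16 of the oestrous cycle were compared with endometrium dissected after slaughter on day 15. The arrays were chosen by their titles alone: the 3 titled as PBS controls and the 3 titled as day 15 non-pregnant controls, 6 of the 33 bovine Affymetrix arrays of the study, 1 heifer each. The study asked what interferon alpha and early pregnancy do to bovine endometrium. Biopsies and slaughter tissue came from 2 experiments of it.

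All animals were Bavarian Simmental heifers synchronised with Cloprostenol, a prostaglandin analogue. The biopsied heifers received PBS only into the horn on the side of the corpus luteum on day 14, were flushed with PBS on day 16, and then gave about 6 forceps biopsies each through the cervix. The 3 placebo heifers, used here as further biopsies, received a lipid extrudate without interferon and were sampled in the same way. The slaughter heifers were sham inseminated with sperm-free supernatant, and intercaruncular endometrium was dissected after slaughter on day 12 (5 animals), day 15 (3 animals) or day 18 (4 animals). Biopsies were labelled as ipsilateral and caudal and the day 15 tissue as ipsilateral and medial. Experiment and array set, day, PBS infusion and flushing, instrument, part of the horn and sham insemination all differ between the groups and cannot be told apart. Ages were not given in the labels used here.

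Endometrium is a lining of surface and gland epithelium on a stroma of fibroblasts, vessels and immune cells, above a layer of smooth muscle. Late in a cycle without pregnancy, progesterone support ends and the lining prepares for a new cycle. A forceps takes small superficial pieces, while dissection after slaughter can follow the layers. On these arrays RNA is copied from its 3′ end, so probe sets near the 5′ end lose signal when RNA is broken or copies stay short. Each value is a log2 expression level, and each difference is biopsies minus slaughter tissue ± SE from limma, with n = 3 and 3.

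Correlations between probe set levels were 0.989 to 0.992 among PBS biopsies, 0.9906 to 0.9923 among day 15 arrays, and 0.9391 to 0.9563 between a biopsy and a day 15 array. Deposited medians were 6.63 to 6.69 in PBS biopsies, against 6.49 to 6.51 in day 15 tissue. The 6 arrays were therefore quantile normalised together, after which the median difference over all probe sets was 0.05. It was 0.26 with the deposited values and 0.11 after centring each array on its median.

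The control signals differed between the sets in the values as deposited, before the arrays were normalised together. The gap between the 3′ and the 5′ control probe set of GAPDH, a glycolytic enzyme, was 3.30, 3.11 and 1.59 in PBS biopsies, against -0.11, -0.08 and -0.04 in day 15 tissue. All biopsies lay above all slaughter arrays, by 2.74 on average. For EF1A, a translation factor, the gaps were 0.18, 0.13 and -0.95 in PBS biopsies, against -1.97, -1.88 and -1.97 in day 15 tissue, a difference of 1.73. The actin control, annotated as ACTA1, went the other way, with 0.75, 0.94 and 1.54 in PBS biopsies against 2.42, 2.67 and 2.22 in day 15 tissue, a difference of -1.36. The exact permutation p was 0.1 for each of these 3 genes, before and after adjustment, and that is the smallest that 3 against 3 arrays can give. The other 3 bovine controls, which were not tested, also had larger mean gaps in biopsies: GST had 0.82 in biopsies and -0.49 in day 15 tissue, Cyph 2.41 in biopsies and 1.33 in day 15 tissue, and eIF-4E 3.91 in biopsies and 3.67 in day 15 tissue. The gap was thus larger in biopsies for 5 of 6 bovine controls. The GAPDH difference came from the 5′ end: its 3′ probe set averaged 11.24 in biopsies and 11.28 in day 15 tissue, and its 5′ probe set 8.57 in biopsies and 11.36 in day 15 tissue.

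The spike-in probe sets moved as well. These detect bacterial transcripts that are usually added before labelling, and the labels do not say whether they were. The gap of the spike-in thr was 4.61, 4.63 and 3.53 in PBS biopsies, against 1.43, 1.42 and 1.31 in day 15 tissue, without overlap. The other spike-ins differed less in their mean gaps: dap had 1.91 in biopsies and 1.35 in day 15 tissue, and lys 0.81 in biopsies and 0.20 in day 15 tissue. For phe the gap was smaller in biopsies (0.72) than in day 15 tissue (1.06). Among slaughter tissue, the day 12 arrays had a dap gap of 2.99 to 3.64, above that of every biopsy. The 3′ signal of thr itself averaged 9.09 in biopsies and 7.75 in day 15 tissue. Some hybridisation controls, a separate kind of control probe set, also differed in their gaps. The mean gap of bioD was 0.54 in biopsies and -0.10 in day 15 tissue, and that of cre 0.48 in biopsies and 0.34 in day 15 tissue. For bioC it was 0.21 in biopsies and 0.17 in day 15 tissue, and for bioB -0.13 in biopsies and 0.02 in day 15 tissue. These differences were not tested.

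**Figure D1:**
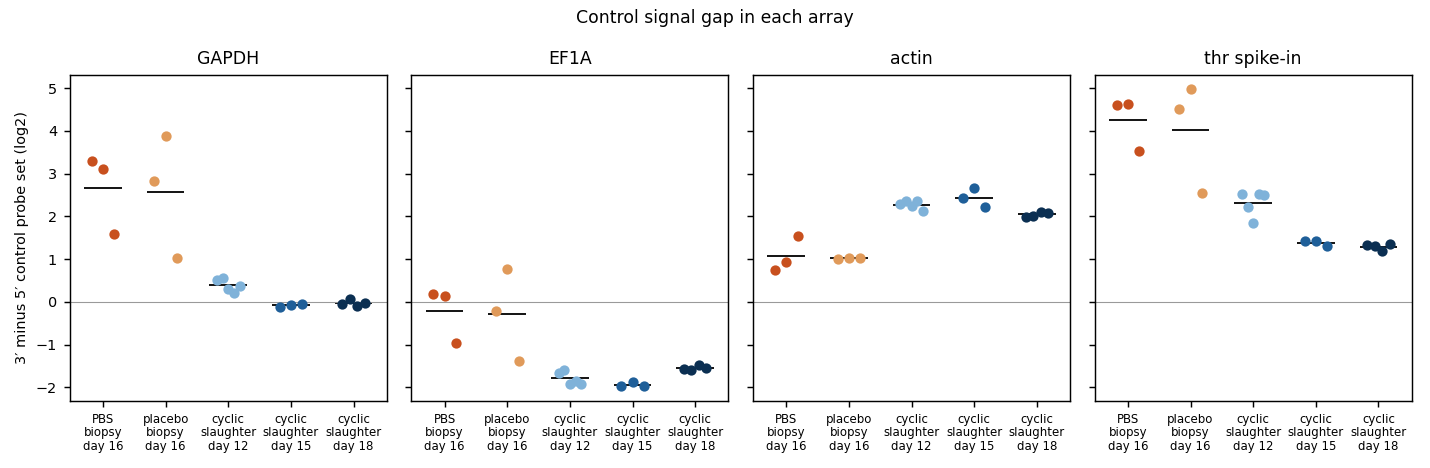
Gap between the 3′ and 5′ control probe sets (log2, vertical axis) in each array for GAPDH, EF1A, actin and the thr spike-in, with bars at the group means. PBS and placebo biopsies lie above the cyclic slaughter tissue of days 12, 15 and 18 for GAPDH and EF1A and below it for actin; for thr, placebo biopsy 3 at 2.54 lies just above the highest day 12 array at 2.53.

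In the comparison as a whole, 12701 of 24016 probe sets passed an adjusted p of 0.05 (52.9%), 6870 higher in biopsies (28.6%) and 5831 lower (24.3%). With 1 probe set for each gene, 4720 of 9155 genes passed (51.6%), 2566 higher (28.0%) and 2154 lower (23.5%). Of these, 881 genes (9.62%) differed by at least 1 on the log2 scale. Counts of a gene list below are to be read against those shares, since a list with about 51.6% of its members past the threshold is like the average gene. The arrays of the groups did not overlap in 15068 probe sets (62.7%).

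In each biopsy group the array with the smallest GAPDH gap most often lay furthest towards the slaughter level. Levels were ranked with the biopsies and cyclic slaughter arrays normalised together. PBS biopsy 3, with a gap of 1.59, was the lowest PBS biopsy in 52.3% of the higher probe sets. It was the highest in 50.5% of the lower ones. PBS biopsy 1, with a gap of 3.30, held these places in 19.8% and 23.5%. In the placebo biopsies, which were not used to call these probe sets, number 3, with a gap of 1.03, held them in 64.9% and 69.1%. Placebo biopsy 2, with a gap of 3.87, held them in 14.6% and 12.4%. When the GAPDH gap entered the fit as a covariate, 597 of 24016 probe sets passed, 164 higher and 433 lower. List counts in that fit are to be read against this small share, so few or no passing members are not particular to a list. Gap and group nearly coincide in these 6 arrays, so this fit leaves little of the group difference to be estimated. The part of the gap in the results below was not tested beyond this fit.

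The 10 largest rises and 10 largest falls were chosen among genes past the threshold whose groups did not overlap. The largest measured rise was that of NTS, the precursor of the peptide neurotensin, which had 8.01, 8.10 and 7.70 in PBS biopsies, against 3.53, 3.22 and 3.28 in day 15 slaughter tissue. The groups were far apart, and it rose by 4.59 ± 0.135 (adjusted p = 6.55e-06). Its day 15 mean was above that of only 8.96% of probe sets, those of SPP1 and GP2 above 14.5% and 11.3%, and no detection calls were used here, so whether such low levels are above background is not known and the order of these rises is uncertain. SPP1, the secreted adhesion protein osteopontin, had 8.80, 7.81 and 7.86 in PBS biopsies, against 3.70, 3.84 and 3.83 in day 15 slaughter tissue, a rise of 4.36 ± 0.255 (adjusted p = 4.48e-05). GP2, a membrane glycoprotein that binds bacteria, had 7.25, 6.98 and 8.73 in PBS biopsies, against 3.49, 3.59 and 3.53 in day 15 slaughter tissue and rose by 4.12 ± 0.418 (adjusted p = 0.000338). PBS biopsy 3 was the highest of the biopsies for GP2.

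S100A8, a calgranulin of neutrophils and inflamed epithelium, had 8.94, 8.98 and 9.37 in PBS biopsies, against 6.23, 5.29 and 5.50 in day 15 slaughter tissue. It rose by 3.42 ± 0.248 (adjusted p = 9.39e-05). SDS, a serine dehydratase, rose by 3.23 ± 0.186, UPK1B, a uroplakin of epithelial surfaces, by 2.82 ± 0.375, and EBD, the enteric beta-defensin, by 2.62 ± 0.299. LTF, the iron-binding milk and mucosal protein lactoferrin, rose by 2.58 ± 0.195, PLN, the calcium pump regulator phospholamban, by 2.52 ± 0.264, and RRM2, a subunit of ribonucleotide reductase, by 2.50 ± 0.188. With the GAPDH gap as a covariate NTS (4.03), GP2 (6.79), S100A8 (4.15), SDS (2.43) and RRM2 (3.56) still passed, and the other 5 did not.

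The largest fall was that of IGF2, a growth factor of foetal and stromal tissue, which had 6.62, 6.53 and 7.11 in PBS biopsies, against 10.71, 10.59 and 10.22 in day 15 slaughter tissue. The change was -3.76 ± 0.19 (adjusted p = 2.65e-05), or 13.5-fold. CCND1, cyclin D1, had 3.26, 3.35 and 3.21 in PBS biopsies, against 6.25, 6.37 and 6.34 in day 15 slaughter tissue and changed by -3.05 ± 0.0821 (adjusted p = 6.41e-06). ACACA, the acetyl-CoA carboxylase of fatty acid synthesis, had 4.23, 4.20 and 4.21 in PBS biopsies, against 7.3, 7.29 and 7.39 in day 15 slaughter tissue and differed by -3.11 ± 0.0755 (adjusted p = 6.2e-06).

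AKT1S1, an inhibitor in the mTORC1 complex, differed by -3.50 ± 0.121, and NDRG2, a stress-responsive protein, by -3.37 ± 0.218. The splicing regulators RBFOX2 and PTBP1 differed by -3.41 ± 0.105 and -3.14 ± 0.109. ARHGAP10, GLG1, a Golgi glycoprotein, and TNS1, the focal adhesion protein tensin, differed by -3.20, -3.13 and -3.02. All 10 passed limma without overlap between PBS biopsies and day 15 tissue, as their choice required. In the 6 PBS and placebo biopsies they lay below all 12 cyclic slaughter arrays, as did 11.9% of all probe sets. For some the PBS biopsy mean was low, above that of only 8.15% of probe sets for CCND1, 17.8% for ARHGAP10, 19.6% for ACACA and 21.1% for AKT1S1. Whether such levels are above background is not known, so the size and order of these falls are uncertain. With the GAPDH gap as a covariate 8 of the 10 still passed, the exceptions being NDRG2 and ARHGAP10.

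**Figure D2:**
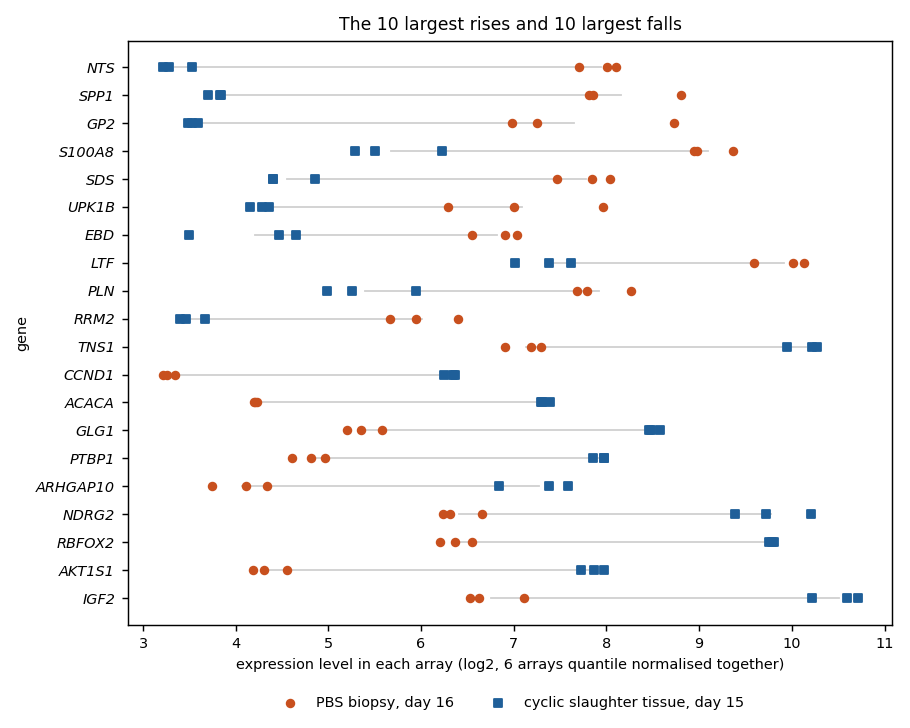
Expression level (log2, horizontal axis) in each PBS biopsy (circles) and each day 15 slaughter sample (squares) for the genes with the 10 largest rises and 10 largest falls, with lines joining the group means. The groups do not overlap for any of these genes, which is a condition of their choice; NTS, at the top, averaged 7.94 in biopsies and 3.34 in slaughter tissue.

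Epithelial markers were mostly lower in biopsies. Of 18 measured, 11 fell, 1 rose and 6 did not pass, with a median of -0.78 against 0.05 over all genes. The median was -0.25 with the deposited values and -0.40 after centring on the array medians. In placebo biopsies against day 18 tissue, a comparison without shared arrays in which 26.3% of all genes were higher and 22.7% lower, 9 of the 18 fell and 2 rose (median -0.56). Those that fell most belong to tight junctions and to epithelial protease control. CLDN4, a tight junction claudin, had 6.75, 7.53 and 7.47 in PBS biopsies, against 10.42, 9.74 and 10.18 in day 15 slaughter tissue, without overlap, a change of -2.86 ± 0.253 (adjusted p = 0.000197). CLDN7, another claudin, had 7.74, 7.31 and 8.48 in PBS biopsies, against 10.10, 10.38 and 10.50 in day 15 slaughter tissue, a change of -2.48 ± 0.282 (adjusted p = 0.00053). SPINT1 and SPINT2, inhibitors of epithelial serine proteases, differed by -2.13 and -1.46, and ST14, the protease matriptase, by -1.73. AP1M2, an epithelial sorting adaptor, differed by -1.78 and ELF3, an epithelial transcription factor, by -1.46.

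The general epithelial markers fell less, did not pass or rose. EPCAM, the epithelial adhesion molecule, had 12.49, 12.57 and 12.55 in PBS biopsies, against 12.32, 12.37 and 12.44 in day 15 slaughter tissue. Every biopsy was above every day 15 array, yet the difference of 0.16 ± 0.0779 (adjusted p = 0.129) did not pass. KRT18, a keratin of simple epithelia, had 9.54, 9.49 and 10.00 in PBS biopsies, against 10.16, 10.44 and 10.66 in day 15 slaughter tissue, a smaller change of -0.74 ± 0.179 (adjusted p = 0.0118). KRT8, its partner, differed by -0.28 ± 0.0806 (adjusted p = 0.024) with means of 4.61 in biopsies and 4.89 in slaughter tissue. KRT19 (-0.19), KRT7 (0.05), the cadherin CDH1 (-0.11) and the mucin MUC1 (-0.04) did not pass, and CDH3, the placental cadherin, rose by 0.88 ± 0.0999. With the GAPDH gap as a covariate the list median was -0.16 and 0 of the 18 passed. In bulk tissue fewer cells of a type and less RNA per cell cannot be told apart.

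Markers of ciliated and of squamous epithelium were read for cells from elsewhere in the tract. Of 6 ciliated cell markers, SPAG6 rose (0.85 ± 0.269), TPPP3 fell (-0.88 ± 0.228) and 4 did not pass. The call of SPAG6 ended without any 1 PBS biopsy or day 15 array 3 (0.56 to 1.17), and that of TPPP3 without day 15 array 3 (-1.07 to -0.69). Of 5 markers of squamous or cervical epithelium 2 rose, the basal keratins KRT14 (5.44, 5.38 and 5.24 in PBS biopsies, against 4.29, 4.47 and 4.36 in day 15 slaughter tissue, 0.98 ± 0.0936 (adjusted p = 0.000268)) and KRT5 (0.37 ± 0.0843). In the comparison of placebo biopsies with day 18 tissue neither keratin passed (0.69 and -0.09), and 2 other members of the list rose, KRT4 (0.39) and the desmosomal cadherin DSC3 (0.41).

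Stromal markers were higher in PBS biopsies where they passed. Of 14 measured, 7 rose, 0 fell and 7 did not pass, with a median of 0.62 that became 1.02 with the deposited values. Placebo biopsies against day 18 tissue had 4 higher and 2 lower (median 0.12). MFAP5, a microfibril protein, had 10.49, 9.51 and 10.27 in PBS biopsies, against 7.47, 7.90 and 7.97 in day 15 slaughter tissue, without overlap, a rise of 2.31 ± 0.263 (adjusted p = 0.000534). OGN, the small proteoglycan osteoglycin, rose by 1.81 ± 0.373, NT5E, the ecto-nucleotidase CD73, by 0.95 ± 0.184, PDGFRA, a growth factor receptor of fibroblasts, by 0.84 ± 0.21 and LUM, lumican, by 0.67 ± 0.182. VIM, the mesenchymal filament vimentin, had 12.04, 12.27 and 12.04 in PBS biopsies, against 11.71, 11.64 and 11.33 in day 15 slaughter tissue, a rise of 0.56 ± 0.128 (adjusted p = 0.00953). PTN, the growth factor pleiotrophin, rose by 1.44 ± 0.39, a call that ended without PBS biopsy 1 or 2 or day 15 array 3 (1.19 to 1.88). With the GAPDH gap as a covariate the list median was -0.08 and 0 of 14 passed.

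Genes of the extracellular matrix split. Of 43, 14 rose, 10 fell and 19 did not pass (median 0.26, and 0.66 with the deposited values). Between placebo biopsies and day 18 tissue 8 rose and 11 fell (median 0.12). THBS2, a matricellular thrombospondin, had 7.07, 7.47 and 6.65 in PBS biopsies, against 5.25, 5.24 and 4.54 in day 15 slaughter tissue and rose by 2.05 ± 0.261 (adjusted p = 0.000822), and POSTN, the matrix protein periostin, rose by 1.98 ± 0.374 (adjusted p = 0.00432). The elastic fibre proteins MFAP2 and MFAP4 fell, with -1.80 ± 0.181 and -1.69 ± 0.131, as did SERPINH1, the collagen chaperone (-1.28 ± 0.2). COL1A1, the main chain of type I collagen, had 11.92, 12.46 and 11.97 in PBS biopsies, against 11.58, 11.54 and 11.34 in day 15 slaughter tissue. Its groups did not overlap, and the rise of 0.63 ± 0.159 (adjusted p = 0.0143) no longer passed without day 15 array 3 (0.46, adjusted p = 0.0502). With the covariate 0 of 43 passed (median 0.10).

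Smooth muscle markers moved in both directions. Of 13, 8 rose, 2 fell and 3 did not pass, with a median of 0.64 (1.13 with the deposited values). MYH11, the smooth muscle myosin heavy chain, had 9.79, 10.12 and 10.87 in PBS biopsies, against 8.90, 9.27 and 7.95 in day 15 slaughter tissue, without overlap, a rise of 1.55 ± 0.388 (adjusted p = 0.0135). MYLK, the myosin light chain kinase, rose by 1.22 ± 0.274, KCNMB1, a potassium channel subunit, by 1.08 ± 0.269 and TPM2, a tropomyosin, by 0.89 ± 0.26, beside PLN above. DES, the muscle filament desmin, had 5.62, 5.6 and 6.30 in PBS biopsies, against 8.31, 8.17 and 7.62 in day 15 slaughter tissue, again without overlap but a change of -2.20 ± 0.245 (adjusted p = 0.000489). TAGLN, the actin-binding protein transgelin, had 5.6, 5.53 and 8.10 in PBS biopsies, against 8.75, 8.89 and 7.81 in day 15 slaughter tissue. PBS biopsy 3 lay within the slaughter arrays for TAGLN, and the change of -2.07 ± 0.691 (adjusted p = 0.0395) no longer passed without any 1 of PBS biopsies 1 and 2 and day 15 arrays 1 to 3 (-2.88 to -1.61). The other contractile markers ACTA2 (0.55) and CNN1 (0.16) did not pass. With the GAPDH gap as a covariate the list median was 2.09, TAGLN turned to 2.23 and 2 of 13 passed.

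Endothelial markers split too. Of 16, 9 rose, 3 fell and 4 did not pass, with a median of 0.55 (0.88 with the deposited values). The placebo biopsies against day 18 tissue had 5 higher and 5 lower (median 0.11). PECAM1, the junctional adhesion molecule CD31, had 8.58, 8.74 and 8.72 in PBS biopsies, against 8.01, 8.12 and 7.76 in day 15 slaughter tissue, without overlap, a rise of 0.72 ± 0.114 (adjusted p = 0.00205). The angiopoietin receptors TEK and TIE1 rose by 0.85 ± 0.17 and 0.65 ± 0.149, the sialomucin EMCN by 0.61 ± 0.112, and FLT1, a receptor for vascular endothelial growth factor, by 1.44 ± 0.214. VWF, the clotting factor of endothelial granules, had 4.20, 4.24 and 4.21 in PBS biopsies, against 6.69, 5.87 and 5.88 in day 15 slaughter tissue. No array overlapped, and it changed by -1.93 ± 0.218 (adjusted p = 0.000517), and so did EGFL7, a secreted vessel protein (-1.98 ± 0.197 (adjusted p = 0.000319)). KDR, the main receptor for the same growth factor, averaged 3.29 in biopsies and 3.59 in slaughter tissue and differed by -0.30 ± 0.0868. With the covariate 1 of 16 passed (median 0.71). Of 6 pericyte markers RGS5, a signalling regulator of vessel walls, rose by 1.05 ± 0.103, the proteoglycan CSPG4 fell, with -0.45 ± 0.0798 and 4 did not pass.

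Genes of acute inflammation that passed were mostly higher in biopsies. Of 30, 15 rose, 2 fell and 13 did not pass, with a median of 0.67. CXCL2, a neutrophil attractant, had 4.88, 5.92 and 5.86 in PBS biopsies, against 3.30, 3.75 and 3.10 in day 15 slaughter tissue, a rise of 2.17 ± 0.301 (adjusted p = 0.00118). CXCL8, interleukin 8, had 5.25, 4.79 and 4.51 in PBS biopsies, against 2.99, 3.04 and 3.12 in day 15 slaughter tissue, a rise of 1.80 ± 0.179 (adjusted p = 0.000311). CCL2, a monocyte attractant, had 7.35, 7.14 and 7.04 in PBS biopsies, against 5.43, 5.01 and 5.22 in day 15 slaughter tissue, a rise of 1.96 ± 0.135 (adjusted p = 7.88e-05). None of these 3 chemokines overlapped between the groups.

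CCL4, a macrophage chemokine, rose by 1.66 ± 0.186, the cytokine IL1A by 1.27 ± 0.158, the adhesion selectins SELE and SELP by 1.03 ± 0.175 and 0.96 ± 0.323, and the acute phase protein HP, haptoglobin, by 1.45 ± 0.439. The adhesion molecule ICAM1 and the NF-kB inhibitor NFKBIA fell, with -0.61 ± 0.178 and -0.58 ± 0.162. TNF (-0.36) and PTX3, a soluble pattern receptor (1.04 ± 0.514 (adjusted p = 0.127)), did not pass. With the GAPDH gap as a covariate the list median was 0.77, but 0 of 30 passed.

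Among leukocyte markers, neutrophil genes had the largest single rise, that of S100A8. Of 11, 6 rose, 2 fell and 3 did not pass (median 0.25, with 0.08 in the deposited values and -0.07 after centring on the array medians). The rises were led by the calgranulins S100A8 and S100A12. S100A12 had 8.99, 9.25 and 8.98 in PBS biopsies, against 7.39, 6.27 and 6.72 in day 15 slaughter tissue, a rise of 2.29 ± 0.266 (adjusted p = 0.000585), and CXCR1, a receptor for interleukin 8, had 5.44, 5.27 and 4.91 in PBS biopsies, against 3.29, 3.23 and 3.50 in day 15 slaughter tissue, a rise of 1.87 ± 0.15 (adjusted p = 0.000141). The granule proteins of this list differed less: MPO, myeloperoxidase, differed by 0.00 and did not pass, and ELANE, neutrophil elastase, rose by 0.25 ± 0.0881 (adjusted p = 0.0497), at the edge of the threshold. ELANE averaged only 3.40 in biopsies and 3.15 in day 15 tissue, and CATHL1 3.84 and 3.83. Whether such levels are above background is not known. The cathelicidin CATHL2 fell (-0.61 ± 0.178), a call that ended without PBS biopsy 2 or 3 (-0.75 to -0.43), and CATHL1 (0.01) did not pass. PTPRC, the leukocyte antigen CD45, did not pass (8.04, 8.25 and 8.21 in PBS biopsies, against 8.17, 7.96 and 7.74 in day 15 slaughter tissue, 0.21 ± 0.127 (adjusted p = 0.203)).

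Of 22 markers of T and NK cells 7 rose, 4 fell and 11 did not pass (median 0.12). GZMB, granzyme B, rose by 1.38 ± 0.335, ZAP70, a T cell receptor kinase, by 1.20 ± 0.0901 and CD8A, the coreceptor of cytotoxic T cells, by 1.11 ± 0.249, while the kinase LCK fell, with -1.08 ± 0.222. The CD3 chain CD3E (-0.07) did not pass. Of 7 B and plasma cell markers JCHAIN, the joining chain of secreted antibodies, rose by 1.29 ± 0.3, CD79A and MZB1 fell, with -0.52 ± 0.0828 and -0.82 ± 0.145, and 4 did not pass. Of 3 mast cell markers, the protease TPSB2 fell (-1.11 ± 0.075) and KIT, the stem cell factor receptor, rose (0.73 ± 0.239). The KIT call ended without PBS biopsy 2 or 3 or day 15 array 2 or 3 (0.49 to 0.98).

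Macrophage and dendritic cell markers had 5 of 15 higher, 2 lower and 8 not past the threshold (median 0.03, and 0.40 with the deposited values). TYROBP, a myeloid signalling adaptor, rose by 0.90 ± 0.116 and CD1B, a lipid antigen presenter, by 0.91 ± 0.101. CD14, the endotoxin coreceptor, rose by 0.73 ± 0.196, a call that ended without PBS biopsy 1 or 2 or day 15 array 2 (0.55 to 0.94). Of 10 MHC class II genes 1 rose, BOLA-DOA (0.64 ± 0.135), and 9 did not pass (median 0.02). With the deposited values 5 passed (median 0.36), and 5 after centring on the array medians (0.21). Over all 24016 probe sets, 16351 and 15606 passed in these settings. Of 18 complement genes 7 rose and 3 fell (median 0.06, and 0.54 with the deposited values). The counts turned round in placebo biopsies against day 18 tissue, with 3 higher and 7 lower (median -0.18). CFB, factor B of the alternative pathway, had 7.33, 8.04 and 8.43 in PBS biopsies, against 6.13, 5.65 and 5.53 in day 15 slaughter tissue, a rise of 2.17 ± 0.289 (adjusted p = 0.001), and still passed with the GAPDH covariate (3.55). The classical component C2 rose by 1.15 ± 0.129, and C7, of the membrane attack complex, by 1.02 ± 0.14.

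Markers of blood were scattered. Of 9 genes of red cells and platelets 2 rose, 3 fell and 4 did not pass. The haemoglobin chain HBB had 6.25, 6.91 and 5.53 in PBS biopsies, against 4.81, 4.64 and 5.97 in day 15 slaughter tissue, overlapping and not past the threshold (1.08 ± 0.442 (adjusted p = 0.0757)). The chain HBA had 3.74, 3.74 and 3.76 in PBS biopsies, against 4.00, 4.24 and 4.14 in day 15 slaughter tissue, a small change of -0.38 ± 0.0888 (adjusted p = 0.0107). Its means were above those of only 13.9% of probe sets in biopsies and 18.6% in day 15 tissue. Against day 12 and day 18 tissue HBA was higher in PBS biopsies, by 0.64 and 0.37. ALAS2, the haem synthesis enzyme of red cells, rose by 0.93 ± 0.0982 and PF4, a platelet chemokine, by 0.87 ± 0.179, whereas the platelet tubulin TUBB1 fell, with -0.60 ± 0.0849. Nerve and glial markers had 1 of 8 higher, STMN2 (1.18 ± 0.204), and 1 lower, SOX10 (-0.36 ± 0.0937), whose call ended without PBS biopsy 2 or day 15 array 1 (-0.43 to -0.31).

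Immediate early genes, which respond quickly to handling and injury, split. Of 26, 6 rose, 6 fell and 14 did not pass, with a median of 0.03. With the deposited values 19 passed, where 16351 of all 24016 probe sets passed. The list median was then 0.40, and it was 0.25 after centring on the array medians. In placebo biopsies against day 18 tissue 9 rose and 3 fell (median 0.32). FOS, a transcription factor subunit, had 10.14, 11.74 and 10.18 in PBS biopsies, against 10.49, 7.78 and 8.05 in day 15 slaughter tissue. PBS biopsy 2 was the highest and day 15 array 1 lay among the biopsies, so the difference of 1.91 ± 0.767 (adjusted p = 0.072) did not pass. EGR1 had 9.78, 11.38 and 9.95 in PBS biopsies, against 10.23, 8.88 and 9.72 in day 15 slaughter tissue, also overlapping (0.76 ± 0.49 (adjusted p = 0.231)). The related FOSB rose by 0.90 ± 0.112, the stress factor ATF3 by 0.97 ± 0.131 and ZFP36, which shortens the life of cytokine messages, by 0.92 ± 0.21. IER3 (-0.90 ± 0.142), SOCS3 (-0.84 ± 0.134) and IER2 (-0.78 ± 0.186) fell. With the covariate 0 of 26 passed.

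Heat shock genes had 9 of 23 higher, 4 lower and 10 not past the threshold (median 0.16, and 0.64 with the deposited values). CRYAB, a small heat shock protein of muscle and stressed cells, had 8.16, 8.22 and 8.54 in PBS biopsies, against 6.86, 6.82 and 6.61 in day 15 slaughter tissue, a rise of 1.54 ± 0.129 (adjusted p = 0.000163) that still passed with the GAPDH covariate (2.16). HSPA2 and CHORDC1 rose by 0.78 ± 0.148 and 0.85 ± 0.119. Genes of the hypoxia response had 8 of 25 higher and 8 lower (median -0.09, and 0.20 after centring on the array medians). PFKFB3, a regulator of glycolysis, rose by 1.22 ± 0.149, while the glucose transporter SLC2A3 (-1.47 ± 0.0974), HMOX1, haem oxygenase (-1.26 ± 0.174), and the glycolytic enzyme ENO1 (-0.94 ± 0.194) fell.

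Genes of steroid, oxytocin and prostaglandin signalling had 11 of 28 higher, 6 lower and 11 not past the threshold (median 0.17). PTGES, a prostaglandin E synthase, had 6.06, 6.29 and 6.00 in PBS biopsies, against 4.51, 4.89 and 4.96 in day 15 slaughter tissue, a rise of 1.33 ± 0.145 (adjusted p = 0.000452). TFF3, a mucosal trefoil peptide of this list, rose by 1.45 ± 0.236. ESR2, oestrogen receptor beta, had 5.22, 5.05 and 5.75 in PBS biopsies, against 6.78, 7.10 and 7.24 in day 15 slaughter tissue, a change of -1.70 ± 0.201 (adjusted p = 0.000626), and PTGER2, a receptor for prostaglandin E2, fell, with -1.05 ± 0.162.

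The probe sets of receptors that mark the stage of the cycle were low and near each other in the groups. In biopsies the means of ESR1, PGR and OXTR were above those of only 17.2%, 17.1% and 29.7% of probe sets. In day 15 tissue the shares were 21.7%, 17.3% and 20.9%. Near values at such levels do not show that the groups were at the same stage. ESR1, oestrogen receptor alpha, had 4.22, 3.98 and 3.86 in PBS biopsies, against 4.5, 4.34 and 4.32 in day 15 slaughter tissue, a small change of -0.37 ± 0.116 (adjusted p = 0.0323) whose call ended without any 1 of 5 arrays, PBS biopsy 1 being the exception (-0.46 to -0.28). PGR, the progesterone receptor, had 3.92, 4.26 and 3.84 in PBS biopsies, against 3.65, 4.11 and 4.29 in day 15 slaughter tissue and did not pass (-0.01 ± 0.187 (adjusted p = 0.974)). OXTR, the oxytocin receptor, had 4.53, 5.81 and 4.81 in PBS biopsies, against 3.73, 4.70 and 4.53 in day 15 slaughter tissue, overlapping and not past the threshold (0.73 ± 0.376 (adjusted p = 0.142)). Against all days, OXTR ranged over 4.76 to 6.07 in PBS biopsies and 5.10 to 5.98 in placebo biopsies, against 4.00 to 4.36 on day 12, 3.88 to 4.94 on day 15 and 5.78 to 6.96 on day 18 in slaughter tissue.

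Secreted and histotroph genes, the proteins that nourish the embryo, had 8 of 23 higher, 3 lower and 12 not past the threshold (median 0.33). They include SPP1, UPK1B and LTF above, LPL, the lipase that frees fatty acids (1.37 ± 0.211), MSTN, the growth inhibitor myostatin (1.14 ± 0.265), and TF, transferrin (0.83 ± 0.147). CST6, a cystatin protease inhibitor, had 9.49, 10.80 and 10.05 in PBS biopsies, against 12.20, 11.34 and 11.45 in day 15 slaughter tissue, a change of -1.55 ± 0.358 (adjusted p = 0.00995), while its other probe set rose. SERPINA14, the uterine serpin, had 6.38, 8.65 and 9.13 in PBS biopsies, against 7.36, 7.43 and 8.33 in day 15 slaughter tissue. PBS biopsy 1 was below and PBS biopsy 3 above all day 15 arrays, and the difference of 0.35 ± 0.687 (adjusted p = 0.693) did not pass. In placebo biopsies against day 18 tissue SERPINA14 was 2.86 higher, past the threshold.

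Cell cycle genes had 14 of 35 higher, 4 lower and 17 not past the threshold (median 0.31). CENPF, a kinetochore protein of dividing cells, had 5.74, 5.66 and 5.76 in PBS biopsies, against 3.91, 3.68 and 3.76 in day 15 slaughter tissue, a rise of 1.93 ± 0.0901 (adjusted p = 2.05e-05), and BUB1B, a checkpoint kinase, rose by 1.69 ± 0.16. Both still passed with the GAPDH gap as a covariate (2.02 and 2.35). CDC20, an activator of the anaphase complex, rose by 1.17 ± 0.0853 and MAD2L1 by 1.22 ± 0.373. The replication genes differed less: MCM6 rose (0.91 ± 0.157), MCM4 fell (-0.83 ± 0.114), and PCNA (0.05) and MCM5 (0.04) did not pass. In placebo biopsies against day 18 tissue 22 of the 35 rose and 6 fell (26.3% and 22.7% of all genes), with a median of 0.65.

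Interferon response genes had 9 of 32 higher, 5 lower and 18 not past the threshold (median 0.26, and 0.65 with the deposited values). SAMD9, an antiviral protein, rose by 1.27 ± 0.276, HERC5, a ligase for ISG15, by 1.03 ± 0.101 and IFI44 by 1.11 ± 0.343. The IFI44 call ended without PBS biopsy 1 or 3 or day 15 array 2 or 3 (0.76 to 1.5). ISG15, the interferon-induced ubiquitin-like protein, had 7.20, 7.54 and 8.02 in PBS biopsies, against 9.32, 7.46 and 7.95 in day 15 slaughter tissue. Day 15 array 1 was the highest for ISG15, and the difference of -0.66 ± 0.461 (adjusted p = 0.267) did not pass. RTP4 fell (-1.25 ± 0.234).

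Housekeeping genes differed by gene and by probe set. The GAPDH probe set among the tested ones had 9.69, 10.08 and 10.61 in PBS biopsies, against 11.63, 11.61 and 11.76 in day 15 slaughter tissue, without overlap, a change of -1.54 ± 0.215 (adjusted p = 0.00121). The GAPDH control probe sets differed by -0.04 at the 3′ end, -1.32 in the middle and -2.79 at the 5′ end. With the GAPDH gap as a covariate the tested probe set was at -0.28 ± 0.304 and did not pass. That covariate is itself made of GAPDH signals on the same arrays, so this fit is no separate check of GAPDH. The beta actin ACTB had 12.85, 12.98 and 12.96 in PBS biopsies, against 12.92, 12.91 and 12.87 in day 15 slaughter tissue (0.03 ± 0.0789 (adjusted p = 0.777)) and EEF1A1 had 13.91, 13.91 and 13.91 in PBS biopsies, against 13.84, 13.77 and 13.84 in day 15 slaughter tissue (0.10 ± 0.0739 (adjusted p = 0.305)), and neither passed. Another EEF1A1 probe set rose by 0.36 ± 0.0856. The EF1A control probe sets differed by 0.73 at the 3′ end, 1.13 in the middle and -1 at the 5′ end. Of 62 ribosomal proteins 4 rose, 14 fell and 44 did not pass (median 0.00), so 29.0% passed, against 51.6% of all genes. RPL7A and RPL13 differed most downwards (-0.99 ± 0.164 and -0.83 ± 0.147), and for both the biopsies ordered as 3, 2 and 1 from the slaughter level down.

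Subunits of oxidative phosphorylation that passed were mostly lower. Of 73, 25 fell, 4 rose and 44 did not pass, with a median of -0.16 that became 0.25 after centring on the array medians and 0.40 with the deposited values. NDUFA10, of complex I, had 6.93, 7.06 and 7.48 in PBS biopsies, against 9.27, 9.14 and 9.18 in day 15 slaughter tissue, a change of -2.04 ± 0.147 (adjusted p = 9.17e-05). ATP5F1D, of the ATP synthase, had 6.67, 6.53 and 7.68 in PBS biopsies, against 8.72, 8.46 and 8.53 in day 15 slaughter tissue, a change of -1.61 ± 0.29 (adjusted p = 0.00344), and CYC1, cytochrome c1, had 8.07, 8.14 and 9.00 in PBS biopsies, against 9.91, 9.76 and 9.94 in day 15 slaughter tissue, a change of -1.46 ± 0.239 (adjusted p = 0.00231). For each of these genes PBS biopsy 3 was the closest to the slaughter arrays, and ATP5F1D (0.20) and CYC1 (0.04) were near 0 with the GAPDH gap as a covariate. Of 14 genes with long transcripts, listed because their 5′ ends are far from their 3′ ends, 6 fell, 2 rose and 6 did not pass (median -0.26, and 0.12 with the deposited values). MYH9, the non-muscle myosin heavy chain, fell, with -1.74 ± 0.0953, and TLN1, the adhesion protein talin, with -1.38 ± 0.234.

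**Figure D3:**
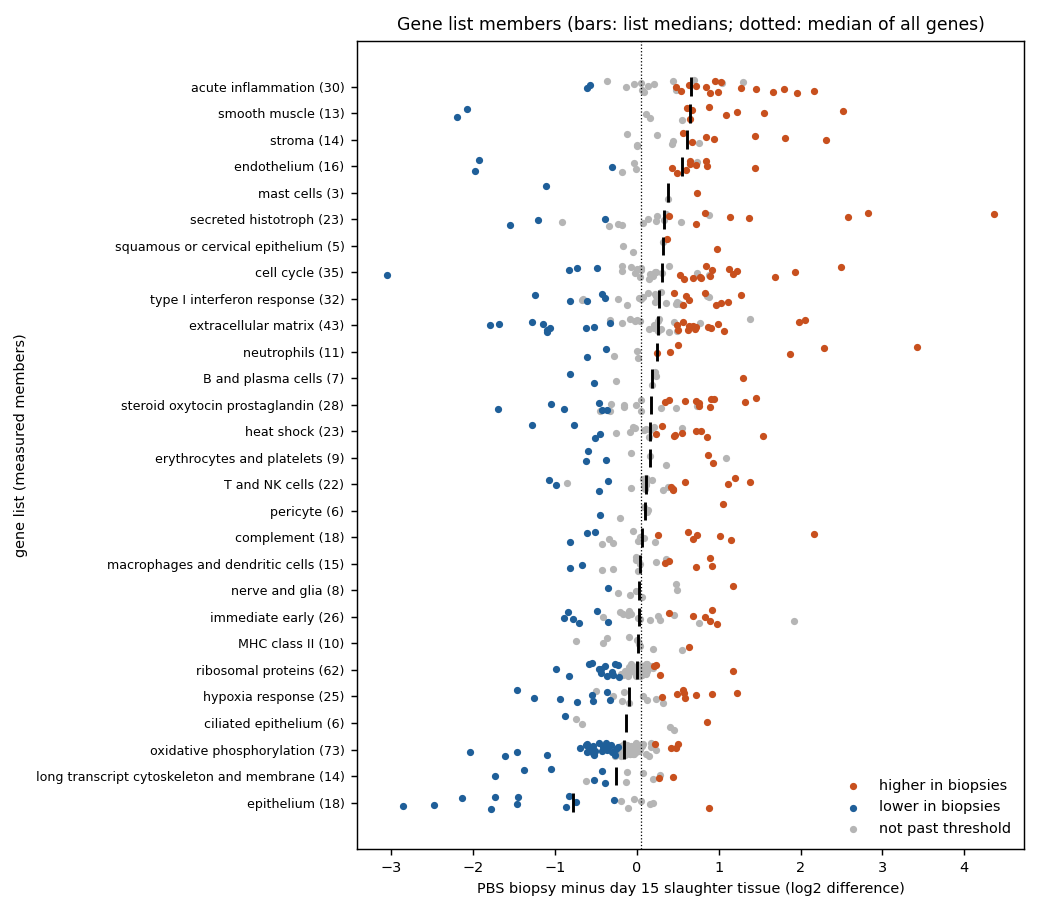
Log2 difference, PBS biopsies minus day 15 slaughter tissue (horizontal axis), of each measured member of 28 gene lists, coloured by whether it passed an adjusted p of 0.05, with list medians as bars and the median of all genes, 0.05, dotted. Medians run from -0.78 for epithelium to 0.67 for acute inflammation, and all lists of over 10 genes have members on both sides of 0.

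Probe sets for the same gene often disagreed. Of 1209 genes with 2 or more probe sets past the threshold, 438 (36.2%) had them in opposite directions. In placebo biopsies against day 18 tissue this was 353 of 1134 (31.1%). Between days of slaughter tissue it was 268 of 736 (36.4%) for day 18 against day 15 and 327 of 962 (34%) for day 15 against day 12. Between pregnant and cyclic tissue of day 18, where 3554 probe sets passed (14.8%), it was 2 of 283 (0.707%). Such disagreement was thus as common between slaughter days as between biopsies and slaughter tissue. Of 2913 genes with several probe sets, 544 had all of them past the threshold in the same direction, 239 higher and 305 lower. In placebo biopsies against day 18 tissue it was 547.

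Several markers above belong to these genes. For PLVAP, a protein of endothelial diaphragms, 1 probe set rose by 0.65 ± 0.115 and the other fell by 2.49 ± 0.356. CDH5, the endothelial cadherin, had 0.50 and -1.49, and ERG, an endothelial transcription factor, 0.43 and -1.90, all past the threshold. JUN, a transcription factor of the immediate early list, had 5 probe sets at 0.01, 0.55, -0.55, -1.88 and -3.31, of which the 3 below 0 passed. RHOB, a small GTPase, had 0.39 (passed), 0.37 and -3.15 (passed), and PTGS2, the inducible prostaglandin synthase, 0.05, 0.09 and -2.31 (passed). CDH1 had -0.11 and, in a probe set that passed, -1.24. In other genes the probe sets differed in size but not in sign: S100A9, the partner of S100A8, had 0.50 and 2.47, and KRT5 had 0.37 and 2.30. IGF2 had -3.76, -2.97, -0.32 and, not past the threshold, 0.16. VWF had -1.93 and, not past the threshold, 0.06, and FLT1 had 1.44, 0.04 and -1.20, the last also past the threshold. CD14 had 0.73 and -0.67, both past the threshold. PDGFRA had 0.84 and -0.33, both past it, and -0.36, which was not. KIT had 0.73, -0.31 and -0.68, all past it, and 0.01. The other probe sets of PTPRC had 0.69 and -0.89, both past it, and those of HBB 0.41, 0.46 and -0.41, all past it. Of 34 genes named by the rule and past the threshold that have several probe sets, 4 had another past it in the opposite direction, CD14, CST6, FLT1 and KIT.

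**Figure D4:**
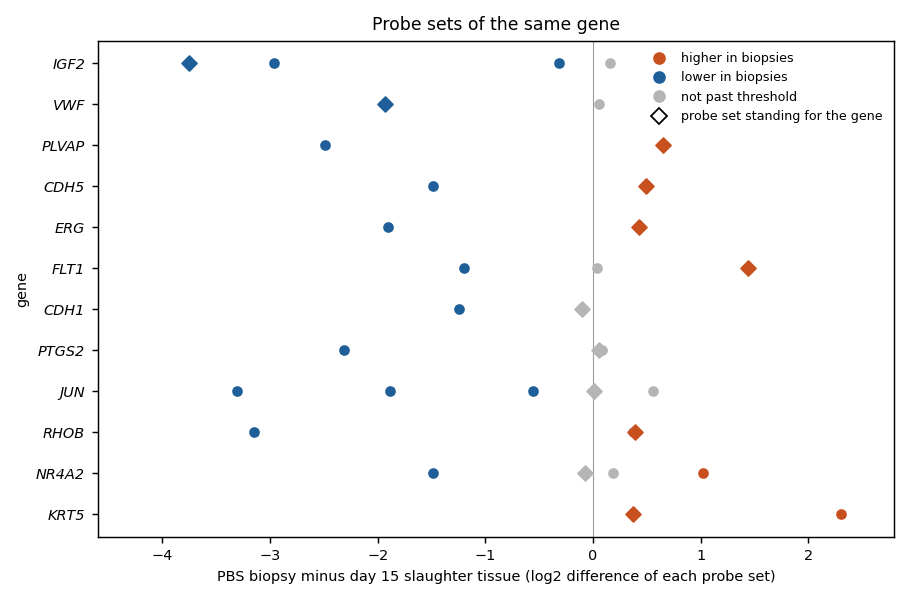
Log2 difference, PBS biopsies minus day 15 slaughter tissue (horizontal axis), of every probe set of 12 genes, chosen after their values were seen to show agreement and disagreement. Diamonds mark the probe set with the highest mean level, which stands for the gene in the counts; PLVAP, CDH5 and ERG have 1 probe set on each side past the threshold.

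The same kind of comparison was made with no array in common with the one above. Placebo biopsies differed from day 18 cyclic tissue, taken from the same caudal part of the ipsilateral horn by its label, in 12139 probe sets (50.5%), 6611 higher (27.5%) and 5528 lower (23.0%). Of the probe sets higher in PBS biopsies than in day 15 tissue, 3968 were also higher here, which is 57.8% of the 6870 and 60% of the 6611, and 136 were lower. Of the lower ones 3778 were also lower, 64.8% of the 5831 and 68.3% of the 5528, and 210 were higher. By gene 4490 passed (49.0%), and 2795 passed in both comparisons in the same direction and 111 in opposite directions.

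Most named genes kept their direction there. The log2 differences in placebo biopsies against day 18 tissue were 5.04 for NTS, 3.89 for SPP1, 2.54 for S100A8, -3.69 for IGF2, -2.43 for CLDN4 and -2.64 for DES, each past the threshold. EBD (0.15), MFAP5 (0.73), PTN (0.01), PECAM1 (0.25) and POSTN (0.62) did not pass. JCHAIN was -0.89 and did not pass, and HBA rose by 0.45. Placebo and PBS biopsies differed in 0 probe sets by limma (605 at an unadjusted p below 0.05). Among slaughter tissue, day 18 differed from day 15 in 9267 probe sets (38.6%) and day 15 from day 12 in 11124 (46.3%). Deposited medians of the cyclic arrays also differed by day, with 6.84 to 6.87 on day 12, 6.49 to 6.51 on day 15 and 7.25 to 7.26 on day 18. Mean gaps of the dap spike-in were 3.27, 1.35 and 1.04 on these days. Cycle day and array set thus cannot be told apart in these counts.

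Levels on the other days set the differences beside those between slaughter days, in which cycle day and array set cannot be told apart. For this view the 6 PBS and placebo biopsies and 12 cyclic slaughter arrays were quantile normalised together. The biopsies lay above every slaughter array in 2600 probe sets (10.8%) and below every one in 2852 (11.9%). NTS ranged over 7.90 to 8.27 in PBS biopsies and 8.41 to 9.42 in placebo biopsies, against 2.58 to 3.67 on day 12, 3.29 to 3.64 on day 15 and 3.67 to 4.01 on day 18 in slaughter tissue. All slaughter arrays were far below the biopsies. S100A8 ranged over 9.08 to 9.49 in PBS biopsies and 7.16 to 8.95 in placebo biopsies, against 4.75 to 5.08 on day 12, 5.55 to 6.48 on day 15 and 5.27 to 6.14 on day 18 in slaughter tissue. No slaughter array reached the lowest biopsy.

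Further genes varied among the slaughter days. SPP1 ranged over 8.00 to 8.94 in PBS biopsies and 6.28 to 9.36 in placebo biopsies, against 5.03 to 5.51 on day 12, 3.84 to 4.01 on day 15 and 3.72 to 4.11 on day 18 in slaughter tissue, so that day 12 was the slaughter day nearest to the biopsies. MFAP5 ranged over 9.63 to 10.60 in PBS biopsies and 8.74 to 9.61 in placebo biopsies, against 9.68 to 10.67 on day 12, 7.67 to 8.15 on day 15 and 7.62 to 9.42 on day 18 in slaughter tissue. Its day 12 level was as high as that of the biopsies. COL1A1 ranged over 12.02 to 12.57 in PBS biopsies and 11.82 to 12.38 in placebo biopsies, against 12.85 to 13.11 on day 12, 11.44 to 11.68 on day 15 and 11.34 to 11.78 on day 18 in slaughter tissue, with day 12 above all biopsies. LTF ranged over 9.71 to 10.24 in PBS biopsies and 10.01 to 10.96 in placebo biopsies, against 6.82 to 10.04 on day 12, 7.24 to 7.82 on day 15 and 5.24 to 8.16 on day 18 in slaughter tissue, and day 12 reached into the biopsies' range.

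The markers of the main cell types differed in this respect. CLDN4 ranged over 6.98 to 7.73 in PBS biopsies and 7.0 to 8.81 in placebo biopsies, against 9.31 to 9.89 on day 12, 9.85 to 10.53 on day 15 and 10.24 to 10.56 on day 18 in slaughter tissue. Biopsies stayed below all days. DES ranged over 5.87 to 6.54 in PBS biopsies and 5.93 to 6.70 in placebo biopsies, against 8.59 to 9.65 on day 12, 7.82 to 8.47 on day 15 and 8.48 to 9.31 on day 18 in slaughter tissue, and VWF over 4.41 to 4.45 in PBS biopsies and 4.43 to 4.54 in placebo biopsies, against 6.16 to 6.96 on day 12, 6.13 to 6.92 on day 15 and 6.49 to 7.17 on day 18 in slaughter tissue. Both were below all slaughter days. VIM ranged over 12.15 to 12.38 in PBS biopsies and 11.72 to 12.25 in placebo biopsies, against 11.72 to 12.17 on day 12, 11.42 to 11.80 on day 15 and 11.59 to 11.71 on day 18 in slaughter tissue, with overlap on days 12 and 15, and MYH11 ranged over 9.91 to 10.97 in PBS biopsies and 10.36 to 11.07 in placebo biopsies, against 8.06 to 10.10 on day 12, 8.13 to 9.40 on day 15 and 8.56 to 9.83 on day 18 in slaughter tissue, with overlap on day 12. EPCAM ranged over 12.59 to 12.66 in PBS biopsies and 12.64 to 12.82 in placebo biopsies, against 12.12 to 12.35 on day 12, 12.44 to 12.55 on day 15 and 12.34 to 12.55 on day 18 in slaughter tissue, slightly above all days.

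**Figure D5:**
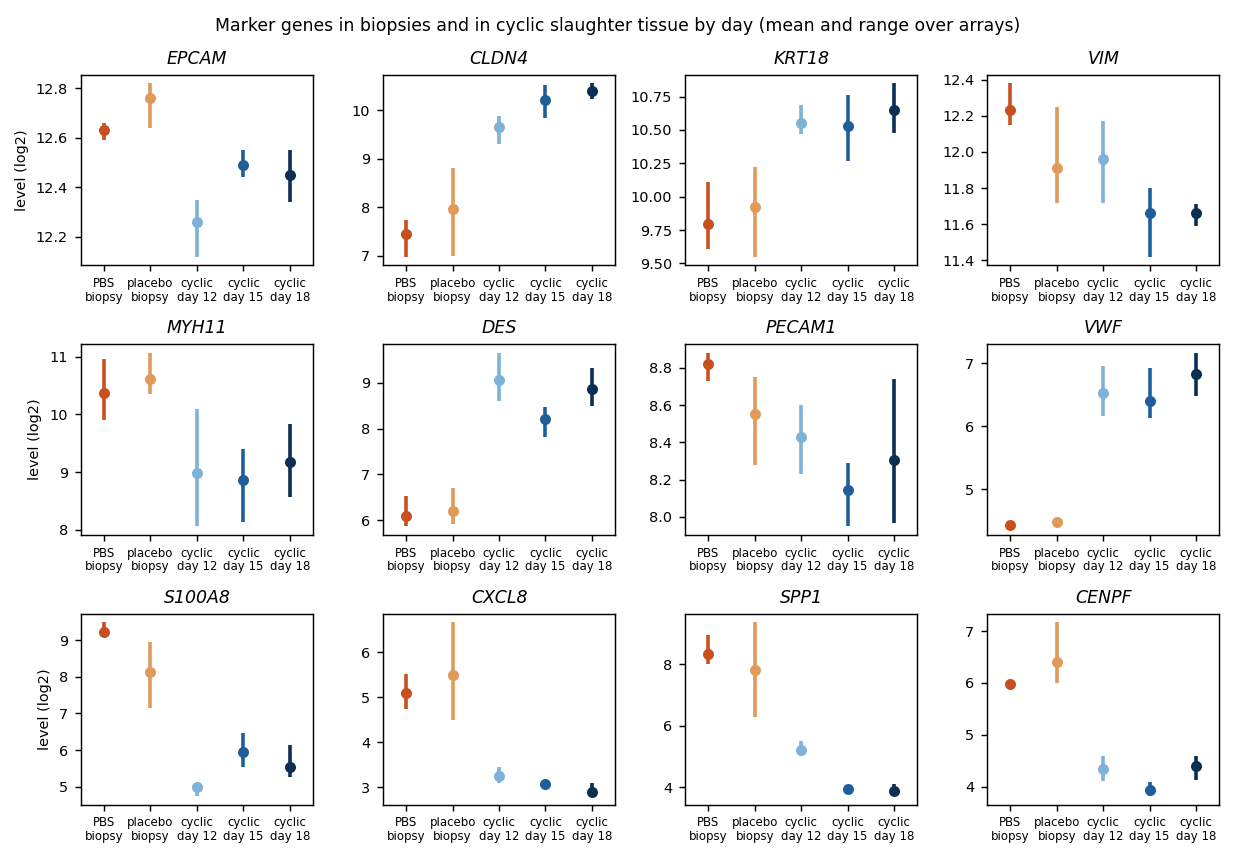
Mean level (points) and range over arrays (lines) on the log2 scale of 12 marker genes in PBS and placebo biopsies of day 16 and in cyclic slaughter tissue of days 12, 15 and 18, each panel with its own vertical axis. CLDN4, DES and VWF are lower in all biopsies than on any slaughter day, while S100A8, CXCL8, SPP1 and CENPF are higher.

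Of the 117 named genes past the threshold, 21 still passed with the GAPDH gap as a covariate, all in the same direction. Beside those named above they include JCHAIN (3.13), PFKFB3 (1.97), RGS5 (1.43) and MYH9 (-1.78). The other 96 did not pass in that fit. Over all probe sets, 597 of 24016 passed in it. By list, 4 of 35 cell cycle genes and 2 of 13 smooth muscle markers passed in it, and 1 each of the neutrophil, B and plasma cell, pericyte, endothelial, complement, heat shock, hypoxia and long transcript lists. In the remaining 18 lists 0 passed, with medians of 0.17 for T and NK cells, 0.60 for interferon response, 0.21 for steroid, oxytocin and prostaglandin signalling, 0.13 for histotroph and -0.36 for red cells and platelets.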

How the data were processed

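RNA from 33 heifers was hybridised to Affymetrix bovine arrays, per the labels' protocols from 10 µg of total RNA with One-Cycle labelling. The authors deposited log2 expression values, 1 per probe set and array, and RMA and affy are named in the submitters' processing notes without versions. Sorted values were nearly identical within the 9 biopsy arrays (SD of at most 0.0511) and within the 6 day 15 arrays (0.0566) but not across the 6 used here (0.334), so each set looks normalised on its own.

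Of 24128 probe sets 112 controls were left out, and the other 24016 were quantile normalised over the arrays of each comparison. Differences were tested two-sided by limma (version 3.58.1, R 4.3.3; functions lmFit and eBayes), with Benjamini-Hochberg adjustment over all 24016 and a threshold of 0.05. The median SE was 0.111, and the number of arrays limits the precision. In simulated data of this size, limma recovered 79% of 100 log2 changes of 1 and 99% of 100 changes of 2, with 6 false calls. No other probe sets were changed there and no array set effect was simulated. These rates need not hold in the data, where 52.9% of probe sets passed. Control signals were compared as deposited, with an exact permutation test adjusted over 3 genes.

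The platform table gave 1 symbol for 13292 probe sets, several for 86 and none for 10638, and 13263 matched RefSeq genes. Each of 9155 genes is represented by its brightest probe set, by the mean of the 6 arrays. Named genes are the 10 largest rises and falls past the threshold without overlap and not starting with LOC, the 4 largest members past it in each of 28 lists, and a fixed set of markers, 128 in all. Other genes and probe sets given with values were chosen after their values were seen. The arrays compared and the lists were chosen with earlier results of these data known. Labels call the arrays biological replicates. Replicate numbers did not pair the samples (correlations of deviations of -0.08, 0.05 and 0.17).

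The alternatives were other scalings, filters, thresholds, fits, control days and biopsy groups, array weights, a replicate block, the GAPDH gap as a covariate and leaving out each array.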

Additional observations from a re-analysis of the deposited data

How the results depend on the processing

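The count of 12701 probe sets stayed within 1.5 times with array weights (13211), all 33 arrays in 1 fit (13425), median centring (15606), placebo biopsies (9435), both biopsy groups (13181), day 12 (15451) or day 18 (14272) as reference, and with 1 array left out (10427 to 12187). With the replicate number as a block it was 11966, and 8772 for placebo biopsies against day 18, where leaving out 1 array gave 10128 to 13685.

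Higher calls were 11147 of 16351 with the deposited values (68.2%, against 54.1%), and in placebo biopsies against day 18 they became 2156 higher and 12087 lower (15.1%, against 54.5%). Testing only the upper 50% of probe sets by level gave 6108 (3407 higher and 2701 lower), and 5990 for placebo (3149 and 2841), as fewer were tested. An adjusted p below 0.01 left 8426 (4322 higher), and a log2 difference of at least 1 left 3011 (1239 and 1772). The GAPDH covariate left 597 (164 and 433) and the thr covariate, chosen after seeing the data, 9 (6 and 3), where the gap nearly coincides with the group. By gene, asking all of several probe sets to pass the same way left 544 of 2913 such genes (239 and 305), also chosen after seeing the data.

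The control gap differences were 2.43 to 3.28 for GAPDH, -1.59 to -1.20 for actin and 1.53 to 2.09 for EF1A with 1 array left out. Against day 12 they were 2.27, -1.20 and 1.57 (adjusted exact permutation p = 0.0179), and against day 18 2.69, -0.97 and 1.33 (0.0286), as more arrays allow a smaller p.

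Single genes changed sign, with these log2 differences. With the thr covariate they were MZB1 0.202, TPPP3 0.767, C7 -0.0237, C1QC 0.677, LYVE1 -0.0828, CLDN7 0.0947, AP1M2 0.499, PF4 -0.619, HSPA2 -0.338, ENO1 0.655, TLN1 0.886, HSPG2 0.258, CD14 -0.00522, ATP5F1D 1.19, CYC1 0.872, ATP5MC2 0.887, RPL7A 0.291, RPL13 0.238, RPS9 0.44, TAGLN 4.26, PTN -2.23, GZMB -0.0465, LCK 0.353, GAPDH 0.356, KRT18 0.619 and COL1A1 -0.0299. With the GAPDH covariate they were TPPP3 0.121, C1QC 0.301, PF4 -0.0162, ENO1 0.107, TLN1 0.0959, ATP5F1D 0.196, CYC1 0.0355, ATP5MC2 0.25, RPS9 0.131, TAGLN 2.23, PTN -0.768 and KRT18 0.0322. Against day 12 they were MZB1 0.401, RGS5 -0.161, LCK 0.499, ACTB -0.352, COL1A1 -0.732 and HBA 0.638, and against day 18 JCHAIN -0.661, CD79A 0.137, SOX10 0.251, CSPG4 0.114, RPL37 -0.255, KRT5 -0.0787, HBA 0.372 and OXTR -0.909. With the mean over probe sets it was KIT -0.0619. The cause was not tested.

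The replicate block ended the calls of 4 named genes and gave 1 a call, and array weights gave 1 a call and ended none. Leaving out 1 array ended between 4 and 9 of the 117 calls and reversed none.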
